A study of Drosophila melanogaster with 12 samples.

Results

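The mitochondrial ribosomal protein genes of Drosophila melanogaster were taken as the genes in the deposited table whose FlyBase symbol begins with mRpL or mRpS, and 70 of the 11236 genes in the table met this rule. Of 73 such symbols in the reference gene table, mRpL53, mRpS34 and mRpS5 had no matching identifier and were not analysed here. The libraries came from heads of virgin flies aged 4 days, from 6 laboratory populations that had evolved for 117 generations under enforced monogamy (3 populations) or polygamy (3 populations) and had then been reared for 1 generation in a shared environment. Each population gave 1 library of each sex, so that 12 libraries formed 4 groups of 3, the females and the males of each mating system. No transgene or drug was named in the labels for any group. The labels do not say how many flies went into each library. The spread within a group is that between populations together with any technical spread between libraries.

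Mitochondria carry their own small genome, and in animals the few proteins it encodes are all subunits of the respiratory chain and ATP synthase. They are made by a dedicated ribosome, the mitoribosome, whose RNA comes from the mitochondrial genome while its proteins are encoded in the nucleus, made in the cytoplasm and imported. Some of these proteins descend from bacterial ribosomal proteins, and others were added during the evolution of mitochondria and have no bacterial counterpart. Photoreceptors and neurons, which fill much of the fly head, depend heavily on mitochondrial respiration.

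By the letter in their symbols, 46 of the 70 genes are named for the large subunit and 24 for the small subunit, and large-subunit and small-subunit members are counted by name throughout. In the mammalian mitoribosome the counterparts of mRpS30 and mRpS18A sit in the large subunit despite their names. By the numbers in their symbols, 44 of the 70 were assigned to families shared with bacteria and 26 were counted as particular to mitochondria. Such a rule can misplace single genes. They were spread over the genome, with 11 on X, 12 on 2L, 11 on 2R, 15 on 3L and 21 on 3R. All 70 passed the filter on low values (a mean normalised value of at least 10) and were tested together with every other gene that passed, 10568 in all. An exon of 41 members overlapped an exon of another gene, on the opposite strand in 40. Because it is not stated whether reads were counted by strand, reads of such pairs could not be told apart.

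The libraries held between 34558521 and 52282995 recovered reads, and values are normalised read counts scaled to nearly equal totals. The tissue label was checked with marker genes: the opsin gene ninaE had a mean value of 2124200 and the neuronal gene elav 8381, while the germ-line genes aub, piwi and Mst87F lay at 59, 35 and 22. The female library of monogamous population 1 stood apart from the rest. Its 7 neuronal marker genes lay 2.66 log2 units (median) below the other monogamous female libraries, and they took 0.0878% of its signal against 0.337% to 0.492% in the other 11 libraries. Member results that rest on this library are given with and without it, as are the counts of the other gene lists between the sexes. It stayed in the main fits.

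The members were expressed at moderate levels in every library. Per kilobase of coding sequence, the normalised value (mean of 12 libraries) had a median of 1268 over the 70 members, against 814 over the 9886 tested genes with a coding length. The 77 genes for proteins of the cytoplasmic ribosome, which translates nuclear messages, had a median of 64377 on the same scale. Not divided by length, the median value was 798 for members and 1110 for all 10568 tested genes. The order of members and all genes thus depends on the division by coding length. Large-subunit members had a median of 1303 and small-subunit members 1224 per coding kilobase. Members of bacterial families had a median of 1348 and those particular to mitochondria 1208.

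The levels within the set spread about a narrow middle, with a few members well above or below it. The highest level per coding kilobase was that of mRpL17 (FBgn0035122), a large-subunit protein of a bacterial family, at 3218. It was followed by mRpS21 (FBgn0044511) at 3184, mRpL28 (FBgn0031660) at 3053 and mRpS9 (FBgn0037529) at 2628. At the other end mRpS24 (FBgn0039159), a small-subunit protein, had the lowest level at 343 per coding kilobase. Above it came mRpS18B (FBgn0032849) at 624, mRpL21 (FBgn0036853) at 689 and mRpS6 (FBgn0035534) at 772. The group means of these 8 genes varied much less than the genes differed from each other, as the plot of levels shows. For mRpL17 the mean normalised value (not per length; ± SD, n = 3) was 1774 ± 424 in females and 1695 ± 77.9 in males under monogamy, and 1648 ± 16.7 in females and 1679 ± 26.1 in males under polygamy. For mRpS24 it was 202 ± 62.0 and 151 ± 1.68 under monogamy and 165 ± 12.4 and 162 ± 9.32 under polygamy, females before males. The wide SDs are those of the group that holds the library standing apart.

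**Figure D1:**
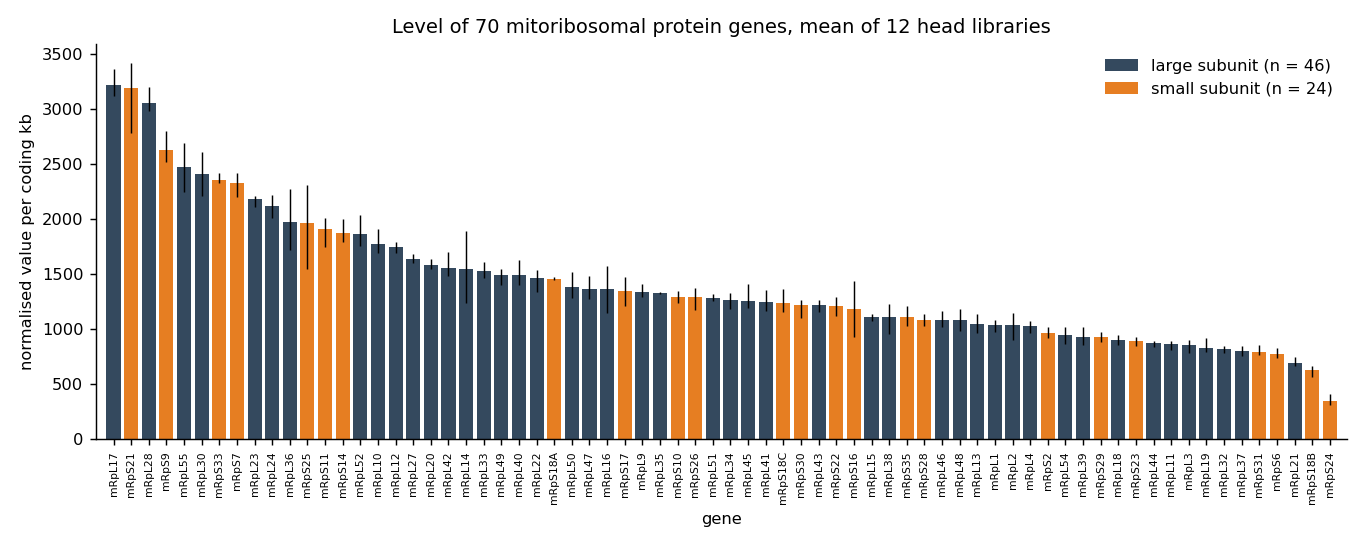
Level of each of the 70 mitoribosomal protein genes, as the normalised value per kilobase of coding sequence (vertical axis, linear), ordered from highest to lowest along the horizontal axis. Bars give the mean of 12 libraries, coloured by the subunit in the gene's name, and black lines run from the lowest to the highest of the 4 group means. Levels run from 3218 for mRpL17 to 343 for mRpS24.

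Within a sex, most members hardly varied between libraries. The highest of the 6 male libraries exceeded the lowest by a factor of 1.15 at the median over members, against 1.25 over all tested genes. Among members 3 of 70 (4.29%) reached a factor of 1.5, against 25.6% of all tested genes. In the 5 female libraries other than the one standing apart the median factor was 1.14 for members and 1.23 for all tested genes. These figures are not adjusted for expression level, and low genes vary more through counting error.

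Summed over members, 11 of the libraries held between 0.125% and 0.141% of their signal in mitoribosomal protein genes, and the female library of monogamous population 1 held 0.170%. In that library 66 of 70 members lay above the mean of the other monogamous female libraries, with a median difference of 0.48 log2 units. The most raised were mRpL36, mRpL41 and mRpS21, by 0.82 each, and mRpS16 lay below by the most, at -0.39. The values of mRpL36 and mRpS16 also include differences between populations: for mRpL36 the female of monogamous population 3 was low (449), and for mRpS16 the male of population 1 was low too (342). All genes tested had a median difference of 0.08 in the same comparison. Some other sets were raised about as much as the members. The median was 0.48 for the cytoplasmic ribosomal protein genes, of which 74 of 75 lay above. It was 0.45 for 8 mitochondrial translation factors and 0.42 for 14 genes of mitochondrial DNA maintenance, transcription and RNA handling. The 14 mitochondrial aminoacyl-tRNA synthetases were raised less, at 0.22. Other short genes were raised there too. With all tested genes split into 4 equal classes of coding length, the shortest class had a median difference of 0.27 and the longest -0.26. Of the 70 members 51 fell in the shortest class, 18 in the next, 1 in the third and 0 in the longest. Members in the shortest class had a median of 0.44. The part of length, neuronal RNA or RNA quality in this library's values was not tested. The median member lay 0.36 above the mean of the other 11 libraries. Against the same mean, those 11 libraries ran from -0.10 to 0.10.

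**Figure D2:**
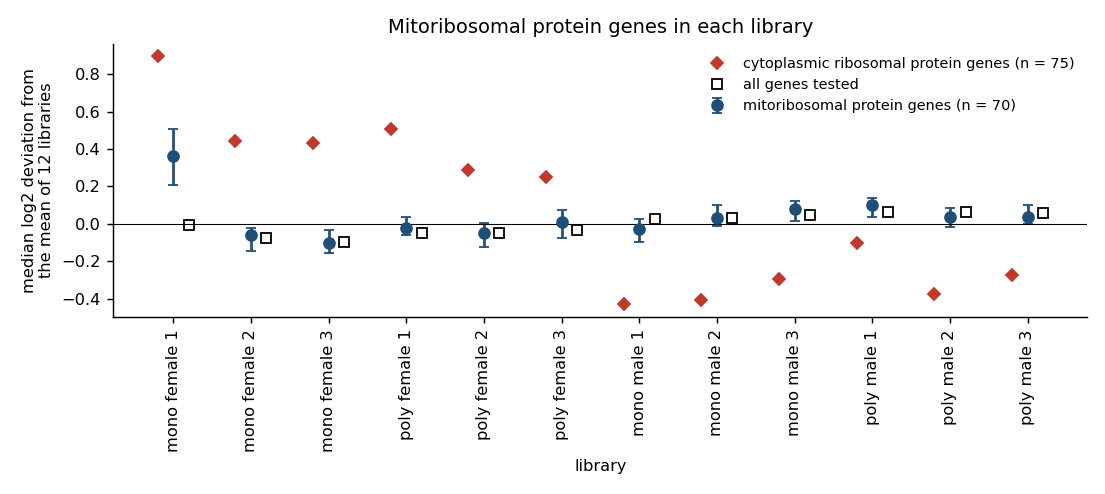
Log2 deviation of each library (vertical axis) from the mean of the 11 libraries other than the female library of monogamous population 1. The axis label names 12 libraries, but the reference leaves that library out. Circles give the median of mitoribosomal protein genes, with bars from lower to upper quartile over 70 genes. Diamonds give the median of 75 tested cytoplasmic ribosomal protein genes, and squares that of all genes tested. The members lie between -0.10 and 0.10 in 11 libraries and at 0.36 in the female library of monogamous population 1, while the cytoplasmic set lies above 0 in all 6 female libraries and below it in all 6 male libraries.

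The series asked first whether evolution under monogamy had changed head expression. No member passed the test between the mating systems in males. By limma 0 of 70 members passed an adjusted p of 0.05 (Benjamini-Hochberg over all tested genes), where 0.643% of all genes did, and 1 member had an unadjusted p under 0.05. edgeR (1.08% of all genes called) and DESeq2 (3.79%) on recovered reads likewise called 0 members. The log2 differences, monogamous minus polygamous, ran from -0.30 to 0.52 with a median of -0.02, and the median over all genes was also -0.02. The median was -0.02 for large-subunit members, -0.05 for small-subunit members, -0.03 for members of bacterial families and 0.01 for those particular to mitochondria. For 14 of 70 members the monogamous and polygamous males did not overlap, 12 being lower and 2 higher under monogamy. Over all genes this held for 31.8%, with 18.1% lower and 13.7% higher.

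The 4 members with the smallest p in males did not pass. They were mRpS16, of a small-subunit family whose human gene is mutated in a mitochondrial disease, with a log2 difference of 0.52 (SE 0.21, limma adjusted p = 0.37), mRpL50 (-0.20, adjusted p = 0.53), mRpS17 (-0.22, adjusted p = 0.55) and mRpS21 (-0.30, adjusted p = 0.61). mRpS21, a small-subunit protein of the bacterial S21 family, had normalised values of 699, 759 and 715 in monogamous males and 896, 888 and 893 in polygamous males. The monogamous libraries were all lower. In females the values were 1198, 692 and 667 under monogamy and 819, 839 and 909 under polygamy, so that the groups overlapped through the library standing apart. Without that library the male difference of mRpS21, unchanged at -0.30, had a limma adjusted p of 0.012, and 8.15% of all genes were then called; without both libraries of its population the difference was -0.27 (adjusted p = 0.039). The female difference was then -0.33 (adjusted p = 0.093 without the library). An exon of mRpS21 overlaps CG8870 on the opposite strand. CG8870 had a mean value of 52.2 and a mating difference in males of -0.43 (limma adjusted p = 0.42).

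In females 0 of 70 members passed by limma, as did 0% of all genes, and 3 members had an unadjusted p under 0.05. edgeR (0% of all genes) and DESeq2 (2.55%) also called 0 members. The median log2 difference over members was 0.10, and it turned to -0.06 without the female library of monogamous population 1. The number of members with a positive difference fell from 57 to 21 of 70 with that library left out. The female groups did not overlap for 5 of 70 members (23.6% of all genes). The smallest p was that of mRpS11, a protein of the small-subunit platform. Its values were 987, 1048 and 1094 in monogamous females and 1134, 1223 and 1237 in polygamous females. Every monogamous library was lower, with a log2 difference of -0.20 (SE 0.07, limma adjusted p = 0.25). The next were mRpS16 (0.55), mRpL2 (0.33) and mRpS30 (0.18), which did not pass either (adjusted p of 0.26, 0.27 and 0.29).

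On the means of both sexes in each population, the unit on which selection had acted, 0 of 70 members and 0% of all genes passed by limma, with 2 members at an unadjusted p under 0.05 and a median difference of 0.03. edgeR (0% of all genes) and DESeq2 (3.65%) called 0 members on reads summed over the sexes. Population means did not overlap for 7 members (28.7% of all genes). The smallest p again belonged to mRpS16 (0.54, adjusted p = 0.33) and mRpS11 (-0.16, adjusted p = 0.34), then to mRpS17 (-0.21) and mRpL50 (-0.16). Mean log2 differences of mRpL12, which forms the stalk that recruits translation factors, and of mRpL55, of the bacterial L31 family, were -0.01 (adjusted p = 0.96) and -0.13 (adjusted p = 0.41). These p-values do not show that the levels were equal. For mRpS16 the 95% interval of the log2 difference ran from 0.05 to 0.99 in males and from 0.08 to 1.02 in females. Those limma intervals are per gene and not adjusted for the number of genes tested. With all libraries mRpS16 did not pass in either sex.

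One member, mRpL36, passed a test of differences between populations of the same mating system. It is described here with mRpS16 and mRpS14, and all of them were chosen after their values were seen. The test of populations within a mating system, an F test in limma over both sexes, was also added then. It called 1 of 70 members (1.43%), mRpL36, and 0.766% of all genes, so that the share of members was near the background. Without the female library of monogamous population 1 it called 3 of 70 members and 15.9% of all genes.

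mRpL36 (FBgn0042112, on 3L) encodes a small large-subunit protein of the bacterial L36 family. Its normalised values in populations 1, 2 and 3 were 1179, 986 and 449 in monogamous females and 909, 1035 and 482 in monogamous males. They were 478, 492 and 1080.2 in polygamous females and 466, 542 and 966 in polygamous males. The libraries thus fell into a high set, both sexes of monogamous populations 1 and 2 and polygamous population 3, and a low set, both sexes of the remaining populations, with no values between 542 and 909. Each set holds populations of both mating systems. The mean of both sexes ranged from 465 to 1044 over the populations, a ratio of 2.24, and the male-to-female ratio within a population ranged from 0.77 to 1.10. The limma F test of populations gave an adjusted p of 0.033, and 3.3e-04 without the library standing apart. edgeR on recovered reads gave 0.027, DESeq2 gave 2.9e-16, and limma after upper-quartile rescaling gave 0.080. Without any other single library it was above the threshold (adjusted p of 0.097 to 0.23), except without the male of monogamous population 1 (9.6e-06), where that population rests on the library standing apart. No exon of mRpL36 overlapped another gene.

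mRpS16 (FBgn0033907, on 2R) was high in monogamous populations 2 and 3 and lower elsewhere. In monogamous populations 1, 2 and 3 its values were 459, 605 and 596 in females and 342, 597 and 668 in males. In polygamous populations they were 379.6, 360.25 and 381 in females and 368, 340.3 and 369 in males. Both sexes of monogamous populations 2 and 3 lay above every other library, and the male of monogamous population 1 lay within the polygamous range. The F test of populations gave an adjusted p of 0.31 by limma with all libraries and 0.0073 without the library standing apart. With both libraries of monogamous population 1 left out, the difference between mating systems passed in males (log2 0.81, SE 0.07, limma adjusted p = 0.0026, 4.41% of all genes called) and in females (0.68, adjusted p = 0.038, 0.0473% called). That population was left out after its values were seen. With only the female library of monogamous population 1 left out, mRpS16 did not pass between mating systems in males or in females. In that fit 8.15% of all genes were called in males and 0% in females. An exon of mRpS16 overlaps ReepB on the opposite strand, whose mean value was 6839 and whose mating difference in males was 0.0031 (limma adjusted p near 1).

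mRpS14 (FBgn0044030, on X), a protein of the small-subunit head, was high in polygamous population 3, with 859 in the female and 822 in the male. In polygamous populations 1 and 2 its values were 607 and 593 in females and 652 and 594 in males. In monogamous populations 1, 2 and 3 they were 894, 714 and 694 in females and 572, 756 and 869.5 in males. The sexes followed each other under polygamy and not under monogamy. The F test gave an adjusted p of 0.72 by limma, and 0.012 without the library standing apart. Exons of mRpS14 overlap CG32533 on the same strand (mean value 845) and Naa15-16 on the opposite strand (mean value 2380). The reads of mRpS14 are therefore uncertain.

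**Figure D3:**
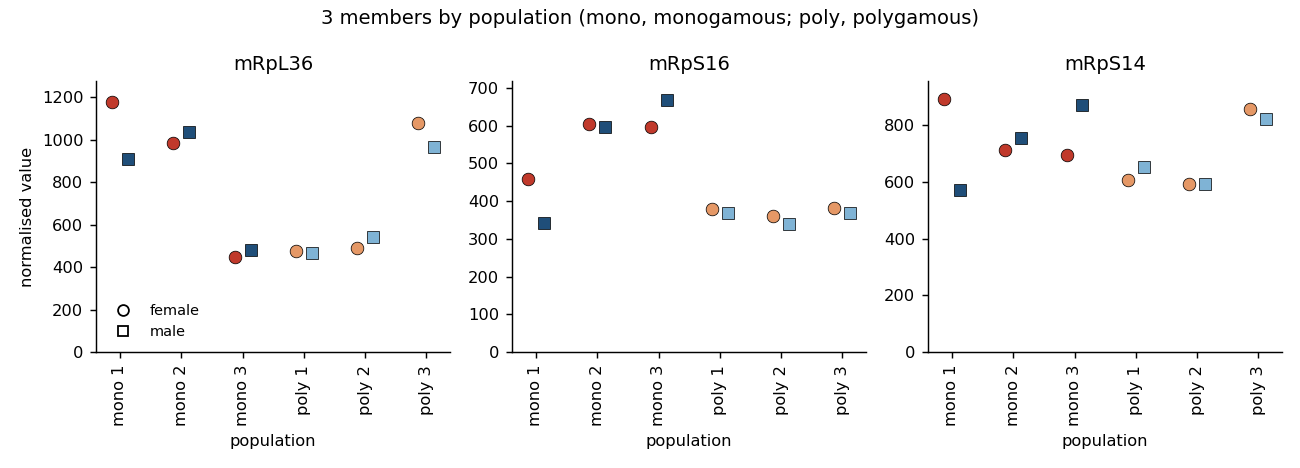
Normalised value (vertical axis, from 0) of mRpL36, mRpS16 and mRpS14 in each population, females as circles and males as squares, 1 library each. For mRpL36 both sexes of monogamous populations 1 and 2 and polygamous population 3 lie at 909 or more and the others at 542 or less; for mRpS16 monogamous populations 2 and 3 lie above the rest.

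The design also asked how heads of males and females differ. A few mitoribosomal protein genes were higher in males, and all that passed lay on X. Over both mating systems 4 of 70 members passed by limma, 4 higher and 0 lower in males, where 29.5% of all genes passed (20.2% higher and 9.27% lower). The share of members called, 5.71%, was below that of all genes. The median sex difference of the members was -0.01, and the median over all genes was 0.13. The scaling sets this level: after TMM rescaling the medians were -0.12 and 0.02, and after upper-quartile rescaling -0.16 and -0.03. The calls over all genes moved from 2139 higher and 980 lower to 851 higher and 1533 lower with TMM and to 506 and 1292 with the upper quartile. A rescaling shifts all genes nearly alike, so the gap between these medians, -0.13 with all libraries, is not tested by it. The gap was -0.04 without the female library of monogamous population 1.

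The members that passed were mRpL14 and mRpL16, large-subunit proteins of bacterial families, mRpL38, a large-subunit protein particular to mitochondria, and mRpS25, a small-subunit protein particular to mitochondria. Values are given for populations 1, 2 and 3 in turn.

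mRpL14 (FBgn0040389) had values of 816, 580.2 and 573 among the females of the monogamous populations and 604, 568 and 610.4 among those of the polygamous ones. In males they were 780.4, 821 and 867 under monogamy and 893, 882 and 966 under polygamy. Every male library lay above every female library except that of monogamous population 1. The log2 difference, male minus female, was 0.48 over both mating systems (SE 0.09, limma adjusted p = 0.0028), 0.62 under polygamy (SE 0.12, adjusted p = 0.016) and 0.34 under monogamy (SE 0.12, adjusted p = 0.069).

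mRpS25 (FBgn0030572) had values of 1104, 722 and 712 in monogamous females and 771, 735 and 811 in polygamous females. In males they were 1080.2, 1148 and 1208 under monogamy and 1157, 1208 and 1105 under polygamy. The female library of monogamous population 1 again lay within the male range, and the other females lay below it. The difference was 0.52 over both mating systems (SE 0.10, limma adjusted p = 0.0042), 0.58 under polygamy (adjusted p = 0.038) and 0.47 under monogamy (adjusted p = 0.045).

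mRpL16 (FBgn0023519) had values of 1107, 874 and 796 in monogamous females and 899.8, 803 and 802 in polygamous females. In males they were 1010.2, 1066 and 1082 under monogamy and 1239, 1084.5 and 1107 under polygamy. Males lay above females but for the same library. The difference was 0.33 over both mating systems (SE 0.08, limma adjusted p = 0.013), 0.45 under polygamy (adjusted p = 0.040) and 0.20 under monogamy (adjusted p = 0.22).

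mRpL38 (FBgn0030552) had values of 1686, 1210.3 and 1207 in monogamous females and 1183, 1175 and 1187 in polygamous females. In males they were 1474.5, 1545 and 1560.5 under monogamy and 1473, 1498 and 1394 under polygamy. The odd female library had the highest value of the 12, and the other females had the lowest. The difference was 0.24 over both mating systems (SE 0.08, limma adjusted p = 0.048), 0.30 under polygamy (adjusted p = 0.15) and 0.18 under monogamy (adjusted p = 0.27).

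**Figure D4:**
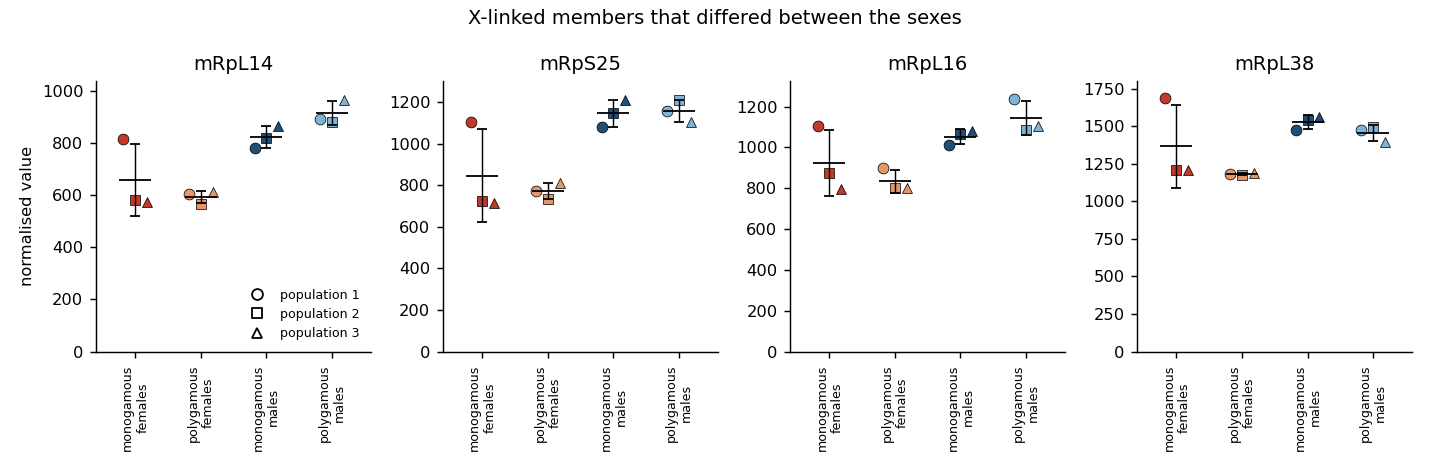
Normalised value (vertical axis, from 0) of the 4 X-linked members that passed between the sexes, in each library of the 4 groups. Symbols give the population, and black marks give the group mean and SD (n = 3). In 5 of 6 populations the male lies above the female; in monogamous population 1 the female library lies at 816 for mRpL14 against 780.4 in the male.

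Under polygamy 3 members passed, mRpL14, mRpS25 and mRpL16, all higher in males (7.77% of all genes), and the nearest below the threshold was mRpL48 (0.27, limma adjusted p = 0.13). Under monogamy mRpS25 alone passed (22.1% of all genes). The next there were mRpL14, mRpS24 (-0.38, adjusted p = 0.13) and mRpL16. With the population as a block in limma 3 members passed over both mating systems (29.7% of all genes), 1 under polygamy (mRpL14, adjusted p = 0.048; 6.47%) and 0 under monogamy (20.5%), where 2 had an unadjusted p under 0.05. In the monogamous populations edgeR called 0 members (17.1% of all genes) and DESeq2 called 2, mRpS24 and mRpS7, both lower in males (21.9%). In monogamous populations 1, 2 and 3 the male-to-female ratio of mRpS7 was 0.754, 1.012 and 1.002. For mRpS24 it was 0.549, 0.996 and 0.829. Population 1 holds the female library standing apart, and without that library limma called 0 members lower in males under monogamy. DESeq2 was not run without it. No member passed a test of the sex difference between mating systems: 0 of 70 and 0% of all genes passed by limma, edgeR (0%) and DESeq2 (0.596%) called 0 members, and 0 members had an unadjusted p under 0.05. The smallest p values there were those of mRpL47 (-0.28), mRpS23 (-0.20), mRpS7 (-0.20) and mRpL14 (-0.28), at an adjusted p of 0.73 each.

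The number called depended strongly on the female library of monogamous population 1. Without it 21 of 70 members passed over both mating systems, 21 higher and 0 lower in males, where 51.7% of all genes passed. Under polygamy 11 members passed (34.6% of all genes) and under monogamy 15 (38.1%), all of them higher in males. Among the 21 were the 4 above, now with differences of 0.57 (mRpL14), 0.63 (mRpS25), 0.39 (mRpL16) and 0.32 (mRpL38). The median difference of members moved from -0.01 to 0.08, against 0.12 for all genes. Without any 1 of the other 11 libraries, mRpL14, mRpL16 and mRpS25 passed over both mating systems each time, and mRpL38 passed in 0 of the 11 fits (limma adjusted p of 0.072 to 0.10). Under polygamy mRpL14 passed in 8 of these 11 fits, mRpS25 in 2 and mRpL16 in 1, with adjusted p up to 0.074 for mRpL14 (lost without the female of polygamous population 1 or 2 or the male of population 3) and to 0.13 for the other two. Under monogamy mRpS25 passed in 0 of the 11 (adjusted p of 0.059 to 0.12), and mRpS24 passed, lower in males, without the female of monogamous population 2. With all 12 libraries, TMM rescaling left mRpL14 (0.37, limma adjusted p = 0.0086) and mRpS25 (0.41, adjusted p = 0.012), with 22.6% of all genes called. edgeR called the same pair (22.7%). Upper-quartile rescaling left 0 members (adjusted p of 0.087 for that pair, 5 members at an unadjusted p under 0.05), with 17% of all genes called.

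That the called members lay on X was noticed in these results, and the split by chromosome was made after it. Of the 11 members on X 4 passed, against 0 of the 59 on autosomes; among all tested genes 35.2% of those on X and 28.3% of those on autosomes passed. The median sex difference was 0.13 for members on X and -0.01 for autosomal members, while it was 0.11 for all genes on X and 0.13 for all autosomal genes. Under polygamy every male library lay above every female library for 9 of 11 members on X and 14 of 59 autosomal members, as it did for 36.8% of all genes. The other members on X were mRpL3 (0.16), mRpL22 (0.13), mRpS30 (0.10), mRpL49 (0.07), mRpL30 (0.02), mRpS14 (-0.03) and mRpL33 (-0.05), none of which passed with all libraries. Without the library standing apart 9 of 11 members on X and 12 of 59 autosomal members passed, where 51.7% of all genes did. Whether members on X differ in these counts from other genes on X was not tested. Drosophila males carry a single X, whose transcription is raised by the dosage compensation complex. Counts of mRpL16 may be affected by arm, on the opposite strand with a mean value of 20369 and a sex difference of 0.15 (limma adjusted p = 0.10). Those of mRpS25 may be affected by CG14414 (mean value 1007, difference 0.12, limma adjusted p = 0.084). How reads over exons of both genes were handled is not stated. mRpL14 and mRpL38 overlapped no exon of another gene.

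**Figure D5:**
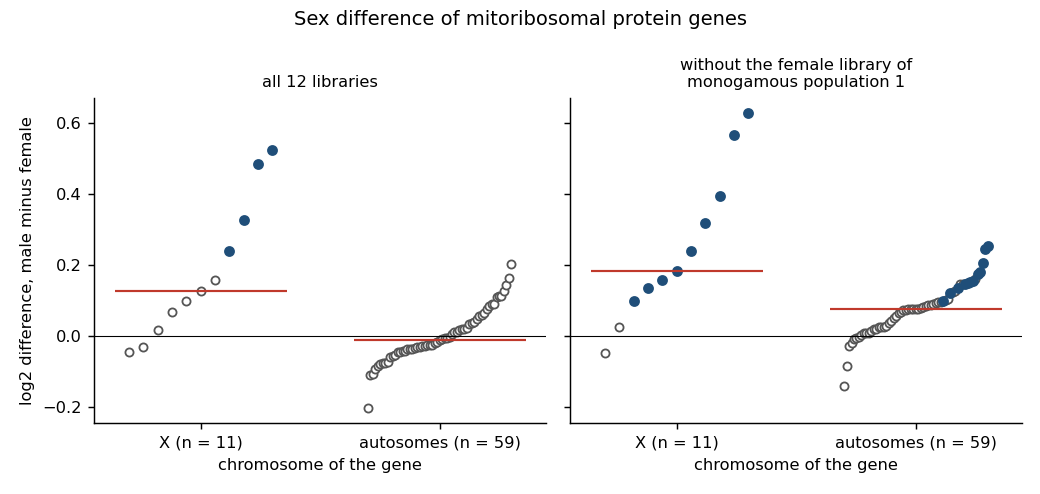
Sex difference over both mating systems (log2, male minus female, vertical axis) of the 11 members on X and the 59 on autosomes, ordered within each. Filled points passed an adjusted p of 0.05, and red lines give the medians. With all 12 libraries 4 members on X passed, where 29.5% of all genes did. Without the female library of monogamous population 1, 9 on X and 12 on autosomes passed, where 51.7% of all genes did.

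Cell-type markers also differed between the sexes, where 20.2% of all genes were higher and 9.27% lower in males. The 7 fat body markers took 2.76% to 6.12% of signal in female libraries and 0.257% to 0.373% in male libraries, with 4 of 7 lower in males and none at 0. Most of the female signal was that of the yolk protein genes Yp1, Yp2 and Yp3. Under polygamy Yp1 had a mean value of 559880 in females and 2002 in males. The marker apolpp had 135330 and 107610 in the same groups. The marker named to went the other way there, at 8007 in females and 15088 in males. Of 7 glial markers 6 were higher in males, at 0.287% to 0.316% of signal in females and 0.360% to 0.531% in males. Of 7 muscle markers 4 were lower in males, at 0.595% to 0.766% of signal in females and 0.405% to 0.558% in males. Of 7 neuronal markers 2 were higher in males with all libraries and 7 without the library standing apart. Of 7 photoreceptor and 5 hemocyte markers 1 each was higher in males. Without the library standing apart 7 glial and 5 photoreceptor markers were higher, and 4 muscle and 5 fat body markers lower. In that fit 40.2% of all genes were higher and 11.4% lower in males. A change in the share of a cell type and a change in RNA per cell cannot be told apart in whole heads. The part of either in the sex differences of members was not tested. The cytoplasmic ribosomal protein genes had a median sex difference of -0.78, with 74 of 75 called lower in males; beside the -0.01 of the mitoribosomal set these are values side by side, and the difference between the sets was not tested.

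Of the mitoribosomal proteins whose genes carry other names, tko encodes the S12 protein, whose mutants are sensitive to mechanical shock, and bonsai the S15 protein. tko had values of 1161, 779.8 and 764 in monogamous females and 814, 763 and 853 in polygamous females, and of 682, 628 and 743 in monogamous males and 741, 690.5 and 729 in polygamous males. All males lay below all females. Its sex difference was -0.27 (SE 0.10, limma adjusted p = 0.068), opposite in sign to the X-linked members that passed, although tko is also on X. Without the female library of monogamous population 1 it was -0.17 (SE 0.05, adjusted p = 0.019). bonsai ranged from 907 to 1179.7 over the libraries, with a sex difference of 0.08 (adjusted p = 0.35), or 0.11 (adjusted p = 0.15) without that library. In males the mating difference was -0.08 for each.

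Other genes of mitochondrial gene expression were read from lists chosen by function. Of the symbols listed, 14 of 20 synthetases, 8 of 10 translation factors and 14 of 19 genes of DNA maintenance, transcription and RNA handling were matched and tested. Over all genes 20.2% were higher and 9.27% lower in males. Of 14 mitochondrial aminoacyl-tRNA synthetases, which charge tRNAs for the mitoribosome, 6 were higher and 0 lower in males over both mating systems, with a median difference of 0.17. They included ValRS-m (0.53, limma adjusted p = 5.9e-04) and TrpRS-m (0.33, adjusted p = 0.0013), both also higher under polygamy (0.50 and 0.28), while LeuRS-m did not pass there (0.24, adjusted p = 0.17). None of these 6 was on X. Of 8 translation factors 1 was higher, the elongation factor mEFG1 (0.22, adjusted p = 0.013), with a median of 0.01; under polygamy mEFG1 (0.18), mIF2 (0.18) and mIF3 (0.12) did not pass. Of 14 genes of mitochondrial DNA maintenance, transcription and RNA handling 1 was higher, the RNA-binding protein gene Lrpprc2 on X (0.28, adjusted p = 0.013), and 1 lower, mtDNA-helicase (-0.63, adjusted p = 0.0075). Under polygamy Lrpprc2 passed (0.36, adjusted p = 0.046) and mtDNA-helicase (-0.43, adjusted p = 0.23) and mldr (0.34, adjusted p = 0.25) did not. Without the female library of monogamous population 1, where 40.2% of all genes were higher and 11.4% lower in males, 8 synthetases, 3 translation factors (mEFG1, mRF1 and mEFTs) and 4 genes of the third list were higher, and 3 of the third list were lower. Under polygamy LeuRS-m, AspRS-m, mEFG1, mIF2 and mldr then passed as well (limma adjusted p of 0.0063, 0.012, 0.015, 0.042 and 0.015). Between mating systems in males 0 genes of the 3 lists passed with all libraries, and mEFTs, mEFTu2 and TrpRS-m passed without that library (adjusted p of 0.027, 0.037 and 0.029; 8.15% of all genes). The smallest p values in that comparison were those of mEFTu2 (0.23), mEFTs (-0.19) and mEFG1 (0.07), of TrpRS-m (0.23), MetRS-m (0.24) and ValRS-m (0.18), and of mTerf5 (-0.24), mtSSB (-0.22) and mtTFB2 (0.11), with adjusted p from 0.21 to 0.87.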

How the data were processed

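The deposited signal is, per the submitters' processing notes, made with TopHat2, HTSeq and DESeq2 on build BDGP5; their versions were not given. RNA was extracted with RNAzol and libraries made with an Illumina mRNA kit, per the labels' protocols. The values show that the authors scaled each library by 1 factor to nearly equal totals; dividing by the value of 1 read gave whole reads for 100% of values at a tolerance of 0.1 reads. A stepwise unit check accepted this recovery in 7 of the 12 libraries, so count tests on the recovered reads are alternatives. Unused per-sample columns numbered 0.

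Genes with a mean of 10 or more were fitted as log2(value + 1) with limma 3.58.1 (lmFit, eBayes with trend; R 4.3.3), 1 mean per group over 12 libraries, with Benjamini-Hochberg adjustment over 10568 genes and calls under 0.05. This scale understates changes of low genes. Alternatives were a pseudocount of 10, no filter, TMM and upper-quartile rescaling, each library left out, a replicate block, edgeR 4.0.16 and DESeq2 1.42.0; tests of populations, leaving out populations and the split by chromosome were added after seeing the data. Members and lists were chosen with earlier results of these data known. Named in each comparison are, of members that passed, up to 6 largest in each direction, or, where fewer than 4 passed, the 4 with the smallest p; mRpL12, mRpL55 and mRpS16; the 4 highest and lowest levels; and up to 3 genes per list. Symbols, chromosomes, coding lengths and overlaps come from annotation of build BDGP6, so no coordinates are given; 10781 identifiers had a symbol. No sequence table was used here. By their titles the male and female library of a number come from 1 population. After removal of group means these pairs correlated at 0.0908 to 0.474. Males and females from different populations of 1 mating system correlated at -0.329 to 0.0516, and group centring pushes the 2 ranges apart. Polygamous females and monogamous males of the same number, from different populations, correlated at 0.306, 0.291 and 0.374 for numbers 1, 2 and 3. The reverse pairs, monogamous females with polygamous males, correlated at 0.0544, 0.102 and -0.0302. The correlations alone therefore cannot settle the pairing, and their cause was not tested. Whether replicates carry technical spread beyond populations is not separable with 1 library each. The scripts were tested on simulated data.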

Additional observations from a re-analysis of the deposited data

How the results depend on the processing

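The mating comparisons and the interaction had 0 members called with all libraries under every scaling, pseudocount, filter, replicate block and count test run; leaving out libraries or populations gave 0 to 2 members in males, 0 to 1 in females and 0 on population means and in the interaction, whose median log2 difference, -0.11, ranged from -0.22 to 0.07. Over both mating systems 4 members passed between the sexes, 2 with TMM rescaling, 0 with the upper quartile, 2 with edgeR, 3 with DESeq2, with no filter on low values and with the replicate block, and 2 to 21 with libraries or populations left out; the median was -0.16 with the upper quartile. Under monogamy 1 passed, 0 with TMM, the upper quartile, the replicate block and edgeR, 2 (both lower in males) with DESeq2, and 0 to 16 with libraries or populations left out; the median was -0.26 with the upper quartile, where mRpL16 turned to -0.0072. Under polygamy 3 passed, 1 with TMM, 0 with the upper quartile, 1 with the replicate block, 1 with edgeR and 0 to 11 with libraries or populations left out; the median was -0.04 with TMM, -0.03 with the upper quartile, -0.05 with edgeR and -0.03 with DESeq2. The lower medians follow from the scaling, which shifts all genes; the cause of the other changes was not tested. The replicate block changed no other count. It pairs both sexes of a population in the sex comparisons and the interaction. In the mating comparisons it groups libraries or populations by replicate number across mating systems. The test of populations called 1 member, 0 with the upper quartile and 0 to 61 with libraries or populations left out; the 61 arise without the male of monogamous population 1, where that population rests on the library standing apart. Members had a median of 745 recovered reads per library, which alone gives a counting error of 3.66% (8.11% for the lowest member, at 152 reads), and 3 populations per mating system limit what differences can be detected.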
